A study of Laccaria bicolor with 20 samples.

Results

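Surplus phosphate was compared directly with no phosphate in free-living mycelium of Laccaria bicolor S238N, a mushroom-forming fungus that makes ectomycorrhiza with tree roots. The comparison set the 2 RNA-seq libraries of the +P medium against the 3 libraries of the −P medium, 5 of the 20 libraries of an experiment on 7 media. Colonies of this strain grew on cellophane over modified Melin Norkrans (MMN) agar for 2 weeks and then for 1 week on the test medium, at 25 °C without light. The +P medium was control MMN with a further 25 mM KH2PO4, which also added potassium, so that effects of phosphate and of potassium cannot be told apart. The −P medium had no phosphate salt, and its ammonium was made up with an ammonium chloride salt. No replacement for the potassium of KH2PO4 is stated, so by this recipe −P held less potassium and more chloride than Control. Effects of these and of phosphate cannot be told apart in −P either. Control MMN (3 libraries) contained KH2PO4 at 3.67 mM and diammonium phosphate at 1.89 mM. It is used here to place each gene within the phosphate range and as the reference for the other media. Its libraries also entered the common fit. Malt extract (0.5%) and casein hydrolysate (1%) stayed in all 3 media with 0.5% glucose, and the phosphorus they bring was not analysed here.

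Fungi take up phosphate through membrane transporters, release it from organic compounds with secreted phosphatases and phytases, and store it in the vacuole as polyphosphate chains that phosphatases break down again. In ectomycorrhiza the fungus passes phosphate and nitrogen to the tree. Ammonium transporters, nitrate and nitrite reductase and glutamine synthetase bring inorganic nitrogen into the cell and into amino acids.

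The deposited counts summed to 11.7 and 16.6 M reads in the +P libraries and to between 11.2 and 18.5 M in the −P libraries. The median tested gene had 216 and 323 reads in +P and 195 to 317 reads in −P. Euclidean distances over the log2 CPM of all tested genes were 63.2 to 68.7 between +P and −P libraries, above the 57.2 between both +P libraries and the 52.8 to 60.4 among −P libraries. Control libraries lay 47.16 to 63.85 apart, which reached into the range between +P and −P. Distances from +P to Control were 53.84 to 76.25. Not all libraries lay with their own medium. −P replicate 1 was nearest to Control replicate 3 (48.6), whereas −P replicates 2 and 3 were nearest to each other (52.8). Each +P library was nearest to a library of the surplus-glucose medium (+C), at 52.2 and 50.3. −P replicate 3 carries a letter i in its label whose meaning is not given in the sources used here.

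The mycelium differed between surplus and no phosphate in 1419 genes, mostly by small amounts. These were 9.64% of the 14725 gene models tested and were called at an adjusted p-value under 0.05 in edgeR's quasi-likelihood test. In +P, 579 genes (3.93%) were higher, with a median log2 fold change of 0.69, and 840 genes (5.7%) were lower, with a median of -0.53. Counts in the gene lists below are to be read beside these shares. Only 285 calls exceeded 2-fold (160 higher, 125 lower) and 37 exceeded 4-fold (22 higher, 15 lower). The split of directions followed the scaling: with upper quartile scaling 812 genes were higher and 693 lower. The +P and −P libraries did not overlap in 1395 of the 1419 called genes, against 33.8% of all tested genes. Calls and overlap use the same values, and many named genes were picked among calls without overlap. Where given below, a lack of overlap describes the values and is not separate support. Without −P replicate 1 the test called 1465 genes, 1148 of them among the 1419, and 59 exceeded 4-fold. The count fell to 898 without +P replicate 1 and to 843 without +P replicate 2, where the lone +P library is assumed to vary like the other groups. Fitted on the +P and −P libraries alone, the test called 562 genes, and only 548 (38.6%) of the 1419 remained called. The libraries are from whole colonies, in which fewer hyphae of a kind and less RNA per hypha cannot be told apart.

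**Figure D1:**
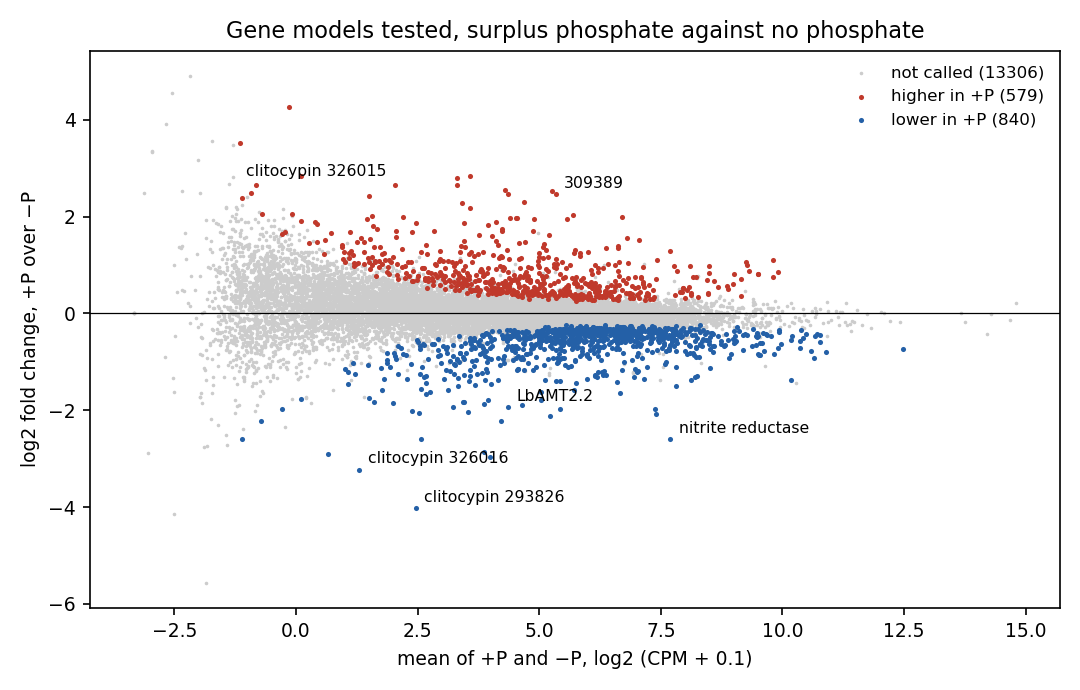
Log2 fold change of +P over −P (vertical axis) against the mean level in both media, as log2 of CPM plus 0.1 (horizontal axis). Each point is 1 of 14725 tested gene models, in red where it was called higher in +P (579), in blue where it was called lower (840) and in grey otherwise. Most calls lie within 2-fold of no change, and the lowest call is the clitocypin JGI-293826 at -4.03.

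Genes listed by annotation for phosphate uptake and release showed no call. These lists rest on partial annotations. They held 3 phosphate transporters, fewer than the study counts in the Pht1 family, and no list covered the Vacuolar Transporter Complex. None of the 2 tested phosphate transporters and none of 10 phosphatases, phytases and glycerophosphodiesterases was called, where 9.64% of all tested genes were. Their log2 fold changes lay between -0.42 and 0.29, with adjusted p-values from 0.157 to 1.00, and 2 of the 12 had an unadjusted p-value under 0.05. The 95% intervals of all 12 lay between -0.99 and 0.68, within 2-fold either way. JGI-297291, annotated as an inorganic phosphate transporter of the major facilitator superfamily, had 58.6 and 36.2 CPM in +P, against 68.0, 63.5 and 57.4 CPM in −P. Its groups overlapped, with +P replicate 2 below all other libraries (log2 fold change -0.42 ± 0.18 (SE), adjusted p = 0.157). The other tested transporter, JGI-458381, named from its Coprinopsis counterpart, had few reads, at 2.49 and 2.64 CPM in +P and 1.44 to 4.13 CPM in −P. A further listed transporter, JGI-562617, had 0 reads in all +P, −P and Control libraries and was not tested. JGI-652117, whose Coprinopsis counterpart is a beta propeller phytase (an enzyme that frees phosphate from phytate), had 135 and 115 CPM in +P and 152, 133 and 135 CPM in −P. These groups overlapped too (log2 fold change -0.17 ± 0.09 (SE), adjusted p = 0.28). Single libraries decided a call in these lists in 2 cases: the glycerophosphodiesterase JGI-456129 was called lower without −P replicate 1 (log2 fold change -0.49, adjusted p = 0.00532) and 1 phosphate transporter was called lower without +P replicate 1.

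Polyphosphate and phosphoinositide genes moved little and in both directions. JGI-317181 (symbol LbPPX1), a polyphosphate phosphatase, had 32.8 and 34.8 CPM in +P, against 53.6, 39.7 and 47.6 CPM in −P. Both +P libraries were below all −P libraries (log2 fold change -0.48 ± 0.11 (SE), adjusted p = 0.00821), and the call was lost without +P replicate 1. JGI-589527, which the study also names a polyphosphate phosphatase, had 63.1 and 56.5 CPM in +P, against 54.8, 43.3 and 44.5 CPM in −P. It was higher in +P (log2 fold change 0.33 ± 0.10 (SE), adjusted p = 0.0376), but not when any 1 of both +P libraries or of −P replicates 2 and 3 was left out. JGI-708028, listed both as a polyphosphate and as an inositol polyphosphate phosphatase, was not called (log2 fold change 0.29 ± 0.09 (SE), adjusted p = 0.055), and it was called higher in 7 of 17 alternatives, among them that without −P replicate 1 (adjusted p = 0.0379). Of 9 inositol phosphate enzymes, 1 was higher and 1 lower, where 3.93% and 5.7% of all tested genes were. JGI-674438, a phosphatidylinositol phosphate kinase, had 35.3 and 29.02 CPM in +P, against 25.4, 23.6 and 23.97 CPM in −P (log2 fold change 0.40, adjusted p = 0.0252), and its call was lost without +P replicate 1 and without −P replicates 2 or 3. JGI-677402, a phosphatidylinositol bisphosphate phosphatase, was called lower at an adjusted p-value of 0.0491 with overlapping libraries, and the call held in 2 of 17 alternative settings.

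Potassium was raised with phosphate in +P, and 1 of 2 listed potassium transport genes was higher and 1 lower. JGI-482899, a potassium uptake permease of the KUP family, had 181 and 194 CPM in +P, against 164, 124 and 116 CPM in −P. The groups did not overlap (log2 fold change 0.47 ± 0.15 (SE), adjusted p = 0.0438), yet the call held in only 8 of 17 alternatives and was lost without any 1 of the +P libraries or of −P replicates 2 and 3. Among 7 P-type ATPases, pumps that move ions at the cost of ATP, 2 were higher and 1 lower. Over all tested genes 3.93% were higher and 5.7% lower. JGI-191443, annotated with proton transport, had 128 and 102 CPM in +P, against 66.7, 52.0 and 51.3 CPM in −P. Both +P libraries lay above all −P libraries (log2 fold change 1.01 ± 0.11 (SE), adjusted p = 3.44e-06), and the call held in all 17 alternatives. JGI-232929, a cation-transporting ATPase, was lower, at 931 and 795 CPM in +P and 1047, 1147 and 1093 CPM in −P (log2 fold change -0.34, adjusted p = 0.0381). That call was lost without +P replicate 2, without −P replicate 2 and without −P replicate 3. None of 6 aquaporins was called.

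Genes for taking up inorganic nitrogen were lower in +P than in −P. Of 5 listed ammonium transporters 4 fell, where 5.7% of all tested genes did. The list median log2 fold change was -0.98, against 0.01 over all tested genes. By gene symbol, a grouping made after the values were seen, 6 of 7 tested ammonium and nitrate transporters fell. The one with most reads was JGI-188643 (LbAMT1.1a), with 545 and 505 CPM in +P, against 1036, 901 and 914 CPM in −P. All −P libraries lay above both +P libraries (log2 fold change -0.86 ± 0.11 (SE), adjusted p = 2.23e-05), and the call held in all 17 alternatives. JGI-190906 (LbAMT1.2) fell less, to 336 and 246 CPM in +P, against 363, 380 and 423 CPM in −P (log2 fold change -0.42 ± 0.12 (SE), adjusted p = 0.0269). JGI-255304 (LbAMT1.1b), with few reads, had 3.43 and 2.18 CPM in +P, against 5.55, 4.78 and 5.55 CPM in −P (log2 fold change -0.95, adjusted p = 0.00741). The Rh-like ammonium transporter JGI-313221 (LbAMT2.3c) had 5.75 and 6.14 CPM in +P, against 8.84, 12.1 and 14.7 CPM in −P (log2 fold change -0.98, adjusted p = 0.036). JGI-484007 was not called, with 1.12 and 1.49 CPM in +P and 2.31, 2.205 and 3.87 CPM in −P (adjusted p = 0.125). Against Control in the same fit, +P was lower for LbAMT1.1a (log2 fold change -0.90, adjusted p = 1.28e-05). It was not called for LbAMT1.2 (-0.37, adjusted p = 0.0538), LbAMT2.3c (-0.43, adjusted p = 0.44) or JGI-484007 (-0.42, adjusted p = 0.638). The Control mean of LbAMT2.3c, at 8.06 CPM, lay between both media. Calls in the list of 5 numbered 3 without +P replicate 1, 1 without +P replicate 2, 4 without −P replicate 1 and 2 without −P replicate 2 or 3. In the grouping by symbol they numbered 2 without +P replicate 2.

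LbAMT2.2 (JGI-331747) had the largest fall among the 5 listed ammonium transporters. It stood at 10.7 and 6.48 CPM in +P, against 11.03, 41.7 and 44.7 CPM in −P. As in LbAMT1.2 and LbAMT2.3c, −P replicate 1 was the lowest −P library. −P replicates 2 and 3 were high, and −P replicate 1 lay just above +P replicate 1. Its Control libraries, at 6.63, 7.81 and 8.07 CPM, were at the +P level. The log2 fold change was -1.93 ± 0.45 (SE, adjusted p = 0.00692). It was -2.36 without −P replicate 1 (adjusted p = 4.4e-05), and the call was lost without +P replicate 2 (adjusted p = 0.134).

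The steps from nitrate to ammonium were lower as well. These genes were grouped by annotation after their values were seen. JGI-291348, annotated as a nitrite reductase, which turns nitrite into ammonium, had 64.6 and 53.3 CPM in +P, against 329, 394 and 344 CPM in −P. Every −P library held at least 5 times the level of either +P library, and the Control libraries (252, 255 and 275 CPM) were much nearer to −P. The log2 fold change was -2.60 ± 0.24 (SE, adjusted p = 3e-07), 1 of the 15 decreases over 4-fold. JGI-254066, annotated as a nitrate reductase, had 43.4 and 28.7 CPM in +P, against 106, 72.2 and 94.1 CPM in −P. Its groups did not overlap (log2 fold change -1.35 ± 0.19 (SE), adjusted p = 5.03e-05). The nitrate transporter LbNrt (JGI-254042) had 32.6 and 26.9 CPM in +P, against 67.9, 44.1 and 57.2 CPM in −P, again without overlap (log2 fold change -0.94 ± 0.16 (SE), adjusted p = 0.000365). All 3 calls held in all 17 alternatives. JGI-254066 and LbNrt have consecutive entries in the RefSeq gene table of the V1.0 assembly, and JGI-291348 lies 4 entries from LbNrt. A second gene annotated with nitrate reductase activity, JGI-627887, had 120 and 112 CPM in +P and 108.6, 106 and 128 CPM in −P (log2 fold change 0.02 ± 0.09 (SE), adjusted p = 0.921).

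**Figure D2:**
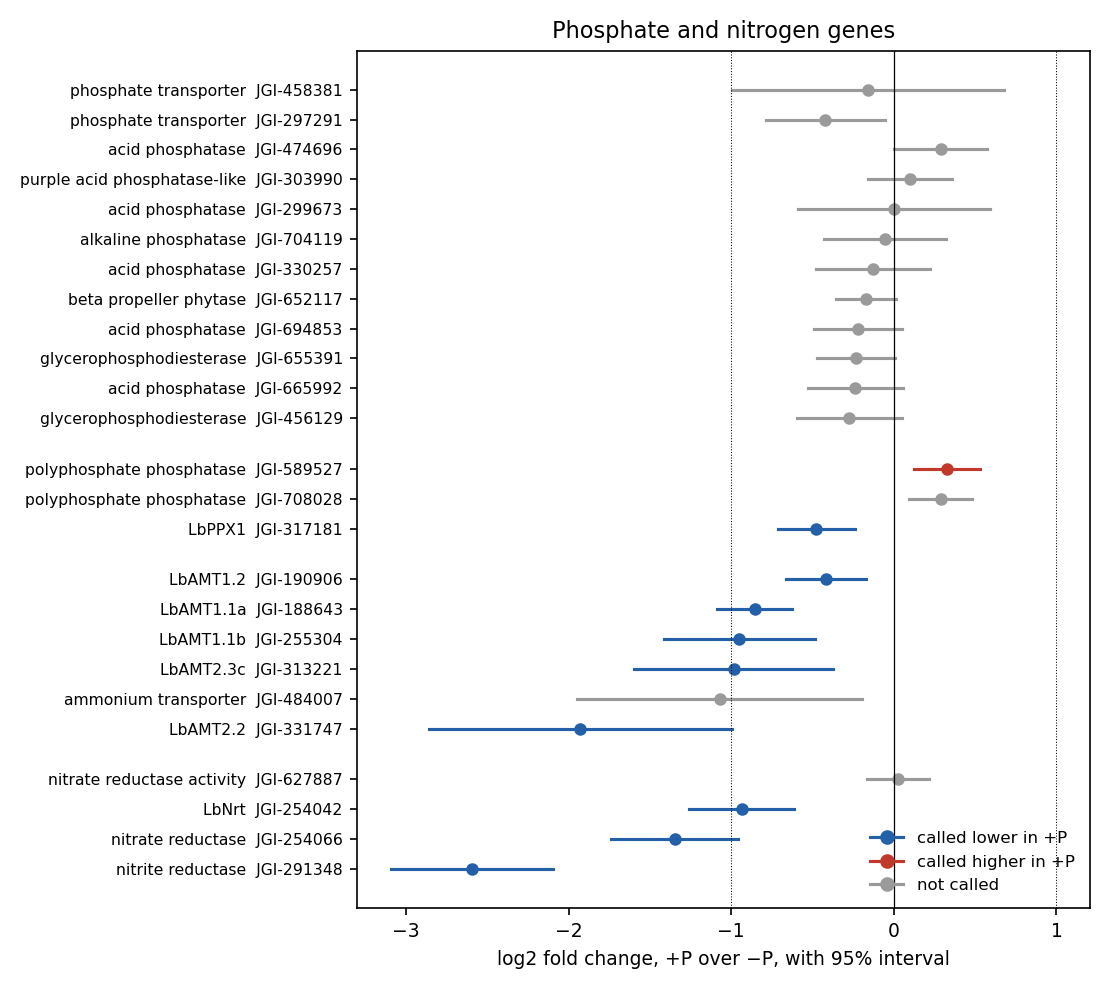
Log2 fold change of +P over −P with its 95% interval (horizontal axis) for 12 tested phosphate transporters, phosphatases, phytase and glycerophosphodiesterases, 3 polyphosphate phosphatases, 6 ammonium transporters and 4 nitrate genes, 1 row each. Blue marks genes called lower in +P, red higher and grey not called, and dotted lines mark 2-fold. All intervals of the first group lie within 2-fold, while nitrite reductase JGI-291348 lies at -2.60.

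Downstream of ammonium, 3 of 6 tested glutamine synthetase genes were lower, by less. The one with most reads, JGI-183088, had 1481 and 1311 CPM in +P, against 2181, 2001 and 2093 CPM in −P. The groups did not overlap (log2 fold change -0.58 ± 0.12 (SE), adjusted p = 0.00214), and the call was lost without +P replicate 2. JGI-684579 fell to 52.2 and 56.6 CPM in +P, against 73.2, 72.4 and 80.8 CPM in −P (log2 fold change -0.47, adjusted p = 0.00159), and this call held in all alternatives. Lower calls in this list numbered 1 without +P replicate 2. Among 25 amino acid and oligopeptide transporters, 6 were lower and 2 higher, with a median log2 fold change of -0.14. With upper quartile scaling 4 of them were lower and 2 higher. Over all tested genes 5.7% were lower and 3.93% higher. JGI-191715, an amino acid permease of the APC family, had 51.9 and 32.7 CPM in +P, against 78.9, 114 and 119 CPM in −P (log2 fold change -1.30 ± 0.19 (SE), adjusted p = 7.42e-05). JGI-250173, an oligopeptide transporter, had 63.8 and 42.2 CPM in +P, against 83.5, 81.6 and 91.4 CPM in −P (log2 fold change -0.70, adjusted p = 0.000725). A proton-dependent oligopeptide transporter, JGI-301981, went the other way, with 31.5 and 25.2 CPM in +P and 13.69, 13.23 and 12.1 CPM in −P (log2 fold change 1.11 ± 0.18 (SE), adjusted p = 0.000335). The lower calls of this list numbered 2 without +P replicate 1 and 3 without +P replicate 2.

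**Figure D3:**
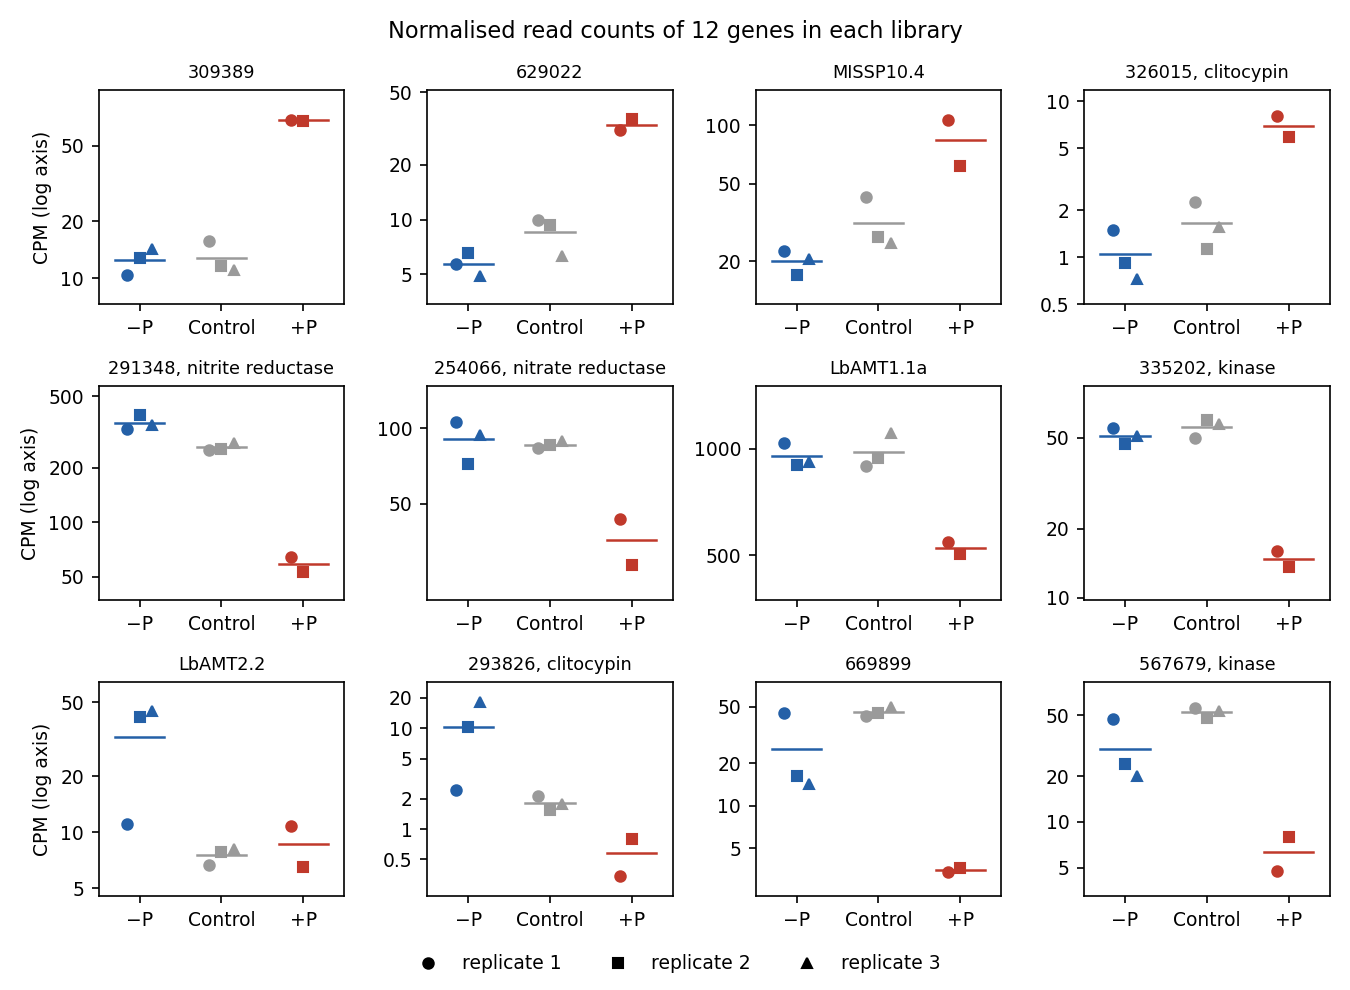
Normalised read counts (CPM, logarithmic axis) of 12 genes in the libraries of −P, Control and +P, in order of phosphate supply. Points are single libraries, with a marker for each replicate number, and lines are means. In the upper row +P stands above the other media. In the middle row it stands below them. In the lower row −P replicate 1 stands apart from −P replicates 2 and 3, below them for LbAMT2.2 and JGI-293826 and above them for JGI-669899 and JGI-567679.

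Clitocypins, mushroom inhibitors of cysteine proteases, changed in both directions. Of 8 gene models 3 were higher and 2 lower, where 3.93% and 5.7% of all tested genes were. The list spanned log2 fold changes from -4.03 to 2.66. JGI-602958 had 17 and 81 reads in +P and 62, 4 and 9 reads in −P, and was not called (adjusted p = 0.401). Without −P replicate 1 it was called higher (log2 fold change 2.615, adjusted p = 0.016). JGI-326015 had 7.98 and 5.91 CPM in +P, against 1.502, 0.919 and 0.731 CPM in −P. It was higher in both +P libraries than in any other library of the 3 media (log2 fold change 2.66 ± 0.32 (SE), adjusted p = 7.72e-06). JGI-318727 had 12.6 and 12.1 CPM in +P, against 6.01, 7.07 and 4.82 CPM in −P (log2 fold change 1.06 ± 0.19 (SE), adjusted p = 0.000841). JGI-382297 was at the threshold (adjusted p = 0.0494), with 14.8 and 19.3 CPM in +P, against 9.65, 6.61 and 4.82 CPM in −P, and its call held in 8 of 17 alternatives.

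JGI-293826 and JGI-326016 were the clitocypins that fell. JGI-293826 had 0.343 and 0.803 CPM in +P, against 2.43, 10.3 and 18.1 CPM in −P, from 4 and 14 reads in +P and 42, 112 and 248 reads in −P. −P replicates 2 and 3 were high, while −P replicate 1 was close to the Control libraries (2.15, 1.54 and 1.77 CPM), which stood between both media. The log2 fold change was -4.03 ± 0.67 (SE, adjusted p = 0.000356), and -4.53 without −P replicate 1. JGI-326016 repeated this, with 0.429 and 0.459 CPM in +P, against 1.27, 3.12 and 8.48 CPM in −P (log2 fold change -3.23 ± 0.60 (SE), adjusted p = 0.00108). Reads with up to 10 matches were kept in the alignment, so counts of members of such gene families may be shared between copies.

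Small secreted proteins that are induced in mycorrhiza (MiSSPs), a class that includes symbiosis effectors, moved in both directions. Over all tested genes 3.93% were higher and 5.7% lower, and the lower MiSSP calls were near that share. Of 14 listed members 2 were higher and 1 lower, against 1 higher without +P replicate 1 and 2 lower without −P replicate 1. Of 19 tested genes with an MISSP symbol, grouped after the values were seen, 3 were higher and 1 lower, with 2 lower without −P replicate 1. JGI-303550 (MISSP10.4) had 106 and 61.5 CPM in +P, against 22.6, 17.1 and 20.5 CPM in −P (log2 fold change 2.04, adjusted p = 6.79e-07). JGI-315282 (MISSP16.6) had 22.1 and 12.9 CPM in +P, against 3.47, 3.58 and 3.65 CPM in −P (log2 fold change 2.28 ± 0.21 (SE), adjusted p = 2.54e-07). In both genes the lower +P library exceeded every −P library more than 2-fold. JGI-395403 (MiSSP13.2) had 91.0 and 89.4 CPM in +P, against 39.4, 32.7 and 39.5 CPM in −P (log2 fold change 1.27, adjusted p = 0.00293). The members that fell were JGI-300377 (MISSP32.1), with 32.3 and 32.4 CPM in +P and 63.0, 78.8 and 63.6 CPM in −P (adjusted p = 0.000907), and JGI-485570, with 18.9 and 17.1 CPM in +P and 35.2, 44.0 and 41.5 CPM in −P (adjusted p = 3.44e-05). Their log2 fold changes were -1.08 and -1.16.

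Of 9 multicopper oxidases 2 were higher, the laccases lcc6 and lcc5, and 1 was higher without any 1 of both +P libraries or of −P replicates 2 and 3. The laccase lcc6 (JGI-399748) had 73.3 and 75.9 CPM in +P, against 48.8, 23.4 and 20.7 CPM in −P (log2 fold change 1.25 ± 0.27 (SE), adjusted p = 0.00351). JGI-295469, a glycoside hydrolase of family GH79, had 65.6 and 84.3 CPM in +P, against 22.6, 16.6 and 18.7 CPM in −P (log2 fold change 1.95 ± 0.25 (SE), adjusted p = 1.85e-05). Neither gene had overlapping groups, which was a condition for naming them. The aspartyl protease LbPR_A1 (JGI-302848) had 52.8 and 47.0 CPM in +P, against 14.6, 16.9 and 23.7 CPM in −P (log2 fold change 1.44, adjusted p = 0.000212). It was the only protease that rose among 19 grouped by symbol, where 4 fell, among them LbPR_A4 (JGI-327486) and the serine carboxypeptidase LbPR_S4 (JGI-310502) at log2 fold changes of -1.17 and -0.95. Lower calls among these proteases numbered 1 without +P replicate 2. Of 5 gene models annotated as hydrophobins, the coat proteins of fungal hyphae, 1 was higher (JGI-624234, log2 fold change 1.07, adjusted p = 0.0247, not called without +P replicate 1 or −P replicates 1 or 3), and of 7 tested genes with a hydrophobin symbol 0 were called. Among 14 genes of chitin synthesis and breakdown 1 was lower, and none of 5 terpene synthases was called. For all these lists, the shares over all tested genes were 3.93% higher and 5.7% lower, and the chitin count was near the latter.

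Among the genes with the highest fold changes in +P, JGI-309389 had 68.6 and 68.0 CPM in +P, against 10.399, 12.8 and 14.3 CPM in −P (log2 fold change 2.46 ± 0.14 (SE), adjusted p = 4.12e-10). JGI-629022 had 30.9 and 35.7 CPM in +P, against 5.72, 6.52 and 4.90 CPM in −P (log2 fold change 2.55 ± 0.17 (SE), adjusted p = 3.08e-09). JGI-607935, annotated as an invasin/intimin-like small secreted protein, had 18.7 and 23.1 CPM in +P, against 3.81, 2.66 and 2.19 CPM in −P (log2 fold change 2.83 ± 0.19 (SE), adjusted p = 3.55e-09). In these 3 genes both +P libraries stood above all −P and Control libraries. JGI-190777, whose Coprinopsis counterpart is CsbD-like, had 66.9 and 64.3 CPM in +P, against 16.9, 8.36 and 7.75 CPM in −P (log2 fold change 2.54). JGI-295828 had 20.1 and 13.99 CPM in +P, against 3.24, 1.56 and 3.00 CPM in −P (log2 fold change 2.65). JGI-654096, a 60S ribosomal protein by annotation, had 11.4 and 22.6 CPM in +P, against 1.44, 4.68 and 1.68 CPM in −P (log2 fold change 2.81, adjusted p = 0.000692). Of 95 tested ribosomal proteins it was the only 1 that rose, and 1 fell, where 8 fell without −P replicate 1 and 3 without +P replicate 1.

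Lower down in expression, JGI-477928 had 26 and 15 reads in +P and 2, 1 and 0 reads in −P. With −P set to a floor of 3 reads per library, the +P mean was 5.61 times the highest −P floor (adjusted p = 0.000998). JGI-333788 had 18 and 33 reads in +P and 4, 1 and 5 reads in −P (log2 fold change 2.83). Among higher genes with an annotation were JGI-708196, a cytochrome b5 fatty acid desaturase, with 38.6 and 28.2 CPM in +P and 8.09, 6.98 and 10.1 CPM in −P (log2 fold change 1.98, adjusted p = 7.03e-08), and JGI-635262, a collagen-related protein, at a log2 fold change of 1.88. JGI-627136 and JGI-448570, named from Coprinopsis counterparts with a MIT domain and a polyketide cyclase domain, reached 2.295 and 2.43.

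A block of 19 genes came from a pair of nodes of the gene map in the study. The study describes these nodes by lower expression with low ammonium and with low glucose. The genes were picked by the study from these same libraries, so their direction is not independent evidence. In all, 16 were lower and 0 higher, with a list median log2 fold change of -1.37. All 16 were also lower than Control without ammonium, in reduced glucose and in surplus glucose, and 4 were lower in surplus ammonium. In each of the 16 the Control mean lay above the −P mean, and −P replicate 1 was the highest −P library in 14. JGI-669899 had 3.43 and 3.61 CPM in +P, against 45.4, 16.3 and 14.3 CPM in −P, and 42.99, 45.0 and 50.1 CPM in Control. Here −P replicate 1 was at the Control level and −P replicates 2 and 3 stood between Control and +P (log2 fold change -2.86 ± 0.37 (SE), adjusted p = 2.11e-05). Without −P replicate 1 its log2 fold change was -2.10 (adjusted p = 7.09e-08). The protein kinase JGI-567679 had 4.80 and 7.91 CPM in +P, against 47.0, 24.1 and 19.9 CPM in −P (log2 fold change -2.23, adjusted p = 2.04e-05). The C2H2 zinc finger gene JGI-445505 had 6.52 and 7.23 CPM in +P, against 38.996, 17.9 and 14.2 CPM in −P (log2 fold change -1.80, adjusted p = 0.000479). Outside the list, JGI-691026 also had −P replicate 1 as its highest −P library, with 8.41 and 18.9 CPM in +P, against 98.8, 42.99 and 41.0 CPM in −P (log2 fold change -2.13). The 16 lower calls became 10 without +P replicate 1 and 14 without −P replicate 1.

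Other lower genes had −P replicate 1 at the low end of −P. JGI-453691, without annotation, had 3.52 and 3.61 CPM in +P, against 9.24, 31.7 and 43.1 CPM in −P, and 7.10, 10.9 and 10.5 CPM in Control. Only −P replicates 2 and 3 stood above all Control libraries (log2 fold change -2.96 ± 0.51 (SE), adjusted p = 0.000522). JGI-295120 had 1.97 and 1.32 CPM in +P, against 3.29, 15.4 and 11.1 CPM in −P (log2 fold change -2.60, adjusted p = 0.00117). JGI-307042, an ABC transporter, had 60.5 and 37.8 CPM in +P, against 115, 193 and 148 CPM in −P (log2 fold change -1.63 ± 0.21 (SE), adjusted p = 2.2e-05), and here all −P libraries exceeded all Control libraries (63.9, 73.2 and 94.2 CPM). JGI-295359 had few reads, with 0.257 and 0.401 CPM in +P and 1.27, 3.22 and 3.43 CPM in −P (log2 fold change -2.90). JGI-484872 had 2 and 3 reads in +P and 10, 11 and 13 reads in −P. Its −P mean was 3.29 times the highest +P floor of 3 reads (adjusted p = 0.029). The call was lost without either +P library and without −P replicates 2 or 3.

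Of 145 tested transcription factors 15 were lower and 9 higher, where 5.7% of all tested genes were lower and 3.93% higher, and with upper quartile scaling 14 were lower and 15 higher. The higher calls numbered 4 without +P replicate 1 and 5 without +P replicate 2. The GATA zinc finger genes JGI-293949 and JGI-685209 were among those that fell. In Aspergillus, GATA factors such as AreA control genes of nitrogen uptake. JGI-293949 had 286 and 305 CPM in +P, against 531, 471 and 416 CPM in −P (log2 fold change -0.68 ± 0.09 (SE), adjusted p = 4.86e-05). JGI-685209 had 231 and 240 CPM in +P, against 353, 364 and 334 CPM in −P (log2 fold change -0.58 ± 0.07 (SE), adjusted p = 1.89e-05). Neither gene had overlapping groups, which was a condition for naming them, and both calls held in all alternatives. JGI-639922, annotated with a response to pH, had 72.8 and 58.7 CPM in +P, against 42.2, 39.96 and 41.1 CPM in −P (log2 fold change 0.67, adjusted p = 6.33e-05). Of 140 tested protein kinases 12 were lower and 5 higher, against 9 and 0 without +P replicate 1, 4 and 2 without +P replicate 2, 11 and 1 without −P replicate 1, 9 and 2 without −P replicate 2 and 7 and 5 without −P replicate 3. The kinases in both directions and the higher transcription factors were near the shares of all tested genes. JGI-335202, a tyrosine kinase by annotation, had 15.96 and 13.6 CPM in +P, against 55.3, 47.0 and 50.7 CPM in −P. The Control libraries (49.8, 59.8 and 57.5 CPM) were at the −P level (log2 fold change -1.79 ± 0.14 (SE), adjusted p = 4.51e-08). Of 8 tested mating-type pheromone and receptor genes 1 was lower, JGI-632625, whose Coprinopsis counterpart is a STE3-type pheromone receptor (log2 fold change -0.55, adjusted p = 0.000978).

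Of 6 tested glycolytic genes 4 were lower and 1 higher, where 5.7% of all tested genes were lower and 3.93% higher. Hexokinase JGI-312018, which phosphorylates glucose at the start of glycolysis, had 154 and 128 CPM in +P, against 181, 211 and 228 CPM in −P (log2 fold change -0.55 ± 0.12 (SE), adjusted p = 0.00298). Fructose-bisphosphate aldolase JGI-291195 had 152 and 160 CPM in +P, against 222, 227 and 221 CPM in −P (log2 fold change -0.51 ± 0.07 (SE), adjusted p = 6.56e-05). The glyceraldehyde 3-phosphate dehydrogenase genes split. JGI-295504 had 1184 and 934 CPM in +P, against 1676, 1436 and 1596 CPM in −P (log2 fold change -0.57, adjusted p = 0.00529). JGI-184409, with fewer reads, had 79.0 and 71.9 CPM in +P, against 35.5, 30.2 and 25.1 CPM in −P (log2 fold change 1.31 ± 0.11 (SE), adjusted p = 4.51e-08). Lower glycolytic calls numbered 1 without +P replicate 2. Of 14 sugar transporters 3 were lower, at log2 fold changes from -0.42 to -0.68, and 0 were called without +P replicate 2, 1 without +P replicate 1 and 1 without −P replicate 3. Of 26 cytochrome P450 genes 5 were lower, led by JGI-702476 with 19.5 and 19.1 CPM in +P and 59.0, 31.9 and 32.8 CPM in −P (log2 fold change -1.11, adjusted p = 0.000253), and with upper quartile scaling 3 were lower and 3 higher. Lower P450 calls numbered 3 without +P replicate 1, 1 without +P replicate 2, 3 without −P replicate 2 and 2 without −P replicate 3. None of 29 tested respiratory chain genes was called.

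Grouped by symbol after the values were seen, lipid metabolism had 6 lower and 0 higher of 27 tested genes, and antioxidant enzymes had 4 lower and 1 higher of 25. Over all tested genes 5.7% were lower and 3.93% higher. The manganese superoxide dismutase LbMnSOD3 (JGI-291347), which removes superoxide, had 314 and 385 CPM in +P, against 489, 560.5 and 603 CPM in −P (log2 fold change -0.66, adjusted p = 0.000359). It has the entry next to nitrite reductase JGI-291348 in the RefSeq table. The lipid genes that fell included the fatty acid desaturase FAD12-3 (JGI-309734, log2 fold change -0.81, adjusted p = 0.0225) and ERG5 of ergosterol synthesis (JGI-187166, -0.33, adjusted p = 0.0453), whose call held in 4 of 17 alternatives. Lower lipid calls numbered 4 without −P replicate 1, 3 without −P replicate 2 and 1 without +P replicate 2, and lower antioxidant calls 2 without +P replicate 2. Metal transporters had 1 call each way among 15, histones 1 higher call among 19, and protein glycosylation 0 among 17.

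Control levels placed most of the change between Control and +P. The position of the Control mean was set to 0 at the −P mean and to 1 at the +P mean of log2 CPM. Its median was 0.148 for genes higher in +P and 0.164 for genes lower in +P. Of the 1419 called genes, 463 (32.6%) had the Control beyond −P, 547 (38.5%) had it between 0 and 0.333, 311 (21.9%) between 0.333 and 0.667, and 98 above 0.667, at or beyond the +P end. Examples at the −P end were JGI-309389 (Control 15.7, 11.5 and 11.04 CPM) and MISSP16.6 (JGI-315282; Control 4.01, 3.87 and 3.11 CPM). The share with the Control under 0.333, at or beyond the −P end, was 71.2% with all libraries and 51.4% without −P replicate 1, when 303 of 1465 called genes lay at the +P end. Among genes lower in +P with the Control between 0.667 and 1, −P replicate 1 was the −P library nearest to +P in 55 of 61 (90.2%), against 75.9% of lower genes with the Control between 0.333 and 0.667 and 46.2% of all called genes. LbAMT2.2 was 1 of 9 genes with the Control beyond +P.

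**Figure D4:**
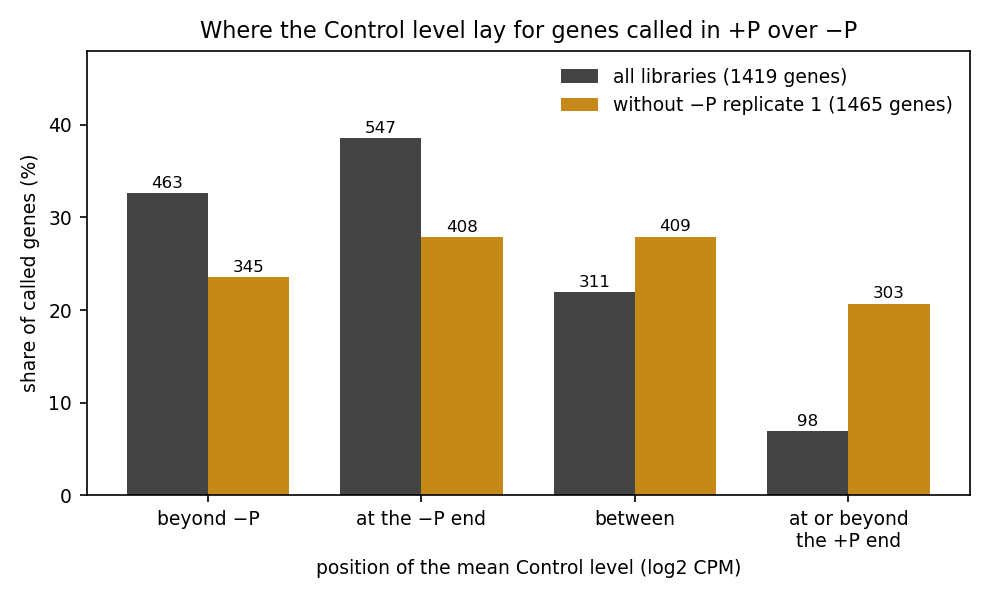
Share of called genes (vertical axis, percent) by the position of the mean Control level on the log2 CPM range between −P and +P (horizontal axis), with all libraries (1419 genes) and without −P replicate 1 (1465 genes). Numbers above the bars are genes. The share at the +P end grows, from 98 to 303 genes, when −P replicate 1 is left out.

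The called genes were followed into the 4 media that share no library with +P or −P, each against Control. In surplus glucose (+C), 302 of the 579 genes higher in +P were also higher (52.2%, against 4.29% of all tested genes) and 0 were lower. Of the 840 genes lower in +P, 372 were also lower in +C (44.3%, against 4.75%) and 2 were higher. Read from +C, these were 47.8% of its higher and 53.1% of its lower genes. Without −P replicate 1 the same counts were 283 of 612 and 338 of 853, with 6 and 19 genes in the opposite direction, and without +C replicate 1 the opposite direction held 11 and 26 genes. Without +P replicate 1 the higher count was 191 of 315. The part of the closeness of +P and +C libraries in this overlap was not tested. JGI-309389, at a log2 fold change of 2.45 in +C, JGI-629022 (1.90) and the clitocypin JGI-326015 (2.44) were among the shared increases.

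Without ammonium (−N), 318 of the 579 higher genes were also higher (54.9%, against 14.7%) and 42 were lower, while 525 of the 840 lower genes were also lower (62.5%, against 17%) and 43 were higher. They made up 14.6% of the genes higher and 21% of the genes lower in −N. Without −P replicate 1, 278 of 612 higher genes were also higher and 104 lower, and 468 of 853 lower genes were also lower and 85 higher. In surplus ammonium (+N) 184 of the 579 higher genes were also higher (31.8%, against 14.1%) and 112 were lower, and 334 of the 840 lower genes were also lower (39.8%, against 15.7%) and 166 were higher. In reduced glucose (−C) 223 of the 579 were also higher (38.5%, against 18.2%) and 136 were lower, and 341 of the 840 were also lower (40.6%, against 19.4%) and 181 were higher. Nitrogen genes differed among these media. LbAMT1.1a (JGI-188643) was lower in −N, +N and +C, at log2 fold changes of -1.05, -3.21 and -0.83 against Control, and higher in −C at 0.48. Nitrite reductase JGI-291348 was likewise lower in −N (-1.71), +N (-3.14) and +C (-1.20). The clitocypins that fell in +P, JGI-293826 and JGI-326016, were higher in +N than in Control, at 4.57 and 3.90, and neither was called in −N or +C.

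**Figure D5:**
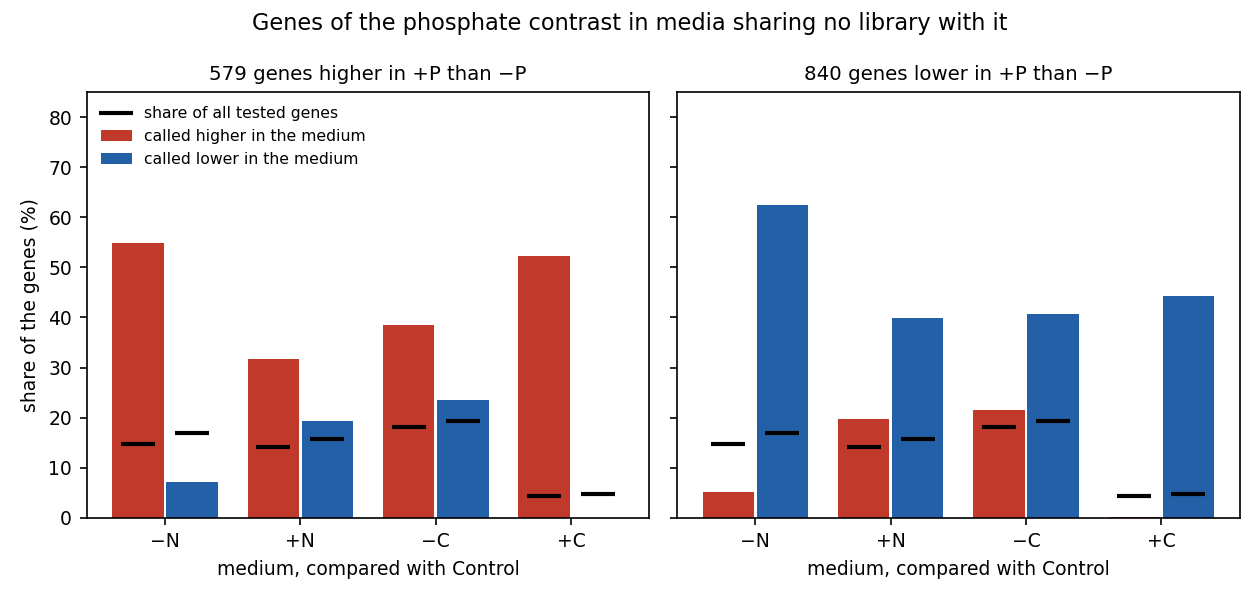
Share of the 579 genes higher (left panel) and the 840 genes lower (right panel) in +P than −P that were called higher (red) or lower (blue) in each of 4 other media against Control (vertical axis, percent). Black marks are the shares of all tested genes. In +C the shared direction holds 52.2% and 44.3% of the genes and the opposite direction 0 and 2 genes.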

How the data were processed

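RNA of 20 mycelial libraries was sequenced with a stranded kit for polyadenylated RNA, 150 bases from each end. The authors state that reads were trimmed and aligned to the JGI v2 transcripts with CLC Genomics Workbench, allowing up to 10 hits per read. The deposited values used here are raw read counts per gene model. The sources used here do not say if these counts took multi-mapping reads or used the strand, so counts of near-identical copies, overlapping and antisense genes are uncertain. The deposited RPKM column was not used. The submitters' processing notes name DESeq2.

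All 20 libraries entered 1 fit of edgeR 4.0.16 (R 4.3.3), with a mean per medium, TMM scaling, the default expression filter by group (14725 of 23130 gene models kept) and the quasi-likelihood F-test of +P minus −P. Benjamini-Hochberg adjustment ran over all tested genes, with calls under 0.05. Standard errors came from the F statistic and 95% intervals from its degrees of freedom. CPM are counts per M reads after TMM scaling, and log2 CPM used a prior count of 2. Folds over a floor divide the mean of the higher group by the highest floor of the lower group. The floor was 3 reads per library (0.172 to 0.276 CPM) and covers counting error only. Such folds are not lower limits of the change. The labels call the libraries biological replicates and no pair was identical.

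Groups came from the labels. Members and gene lists were chosen with earlier results of these data known. The 25 lists came from annotations in tables of the study, which cover 3373 gene models and are held here only in part. Lists by RefSeq symbol (351 symbols among 6580 matched locus tags) and the nitrate genes were grouped after the values were seen. Named genes were the 10 largest changes each way among calls without overlap whose higher group had 10 or more reads per library, the 10 largest with an annotation, all members of 5 lists and up to 3 members with the lowest adjusted p-value in other lists. JGI numbers are protein ids. As the reads were not aligned to the RefSeq assembly, no coordinates are given. Alternatives were other scalings, filters, DESeq2 1.42.0, fewer groups, a term for the letter i, a replicate block and leaving out single libraries.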

Additional observations from a re-analysis of the deposited data

How the results depend on the processing

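Fitted on the +P and −P libraries alone, the test called 562 genes (253 higher, 309 lower), and with the Control libraries added 849 (375 higher, 474 lower). Of the 1419 genes, 548 and 827 remained called in these fits. Leaving out 1 library of the 3 media gave 843 to 1465 calls, 315 to 612 higher, 445 to 853 lower and 36 to 59 over 4-fold. The number of called genes with the Control at or beyond the −P end lay between 648 and 1026. A test of the 4-fold limit itself (edgeR glmTreat) called 0 genes, with 25 at an unadjusted p-value under 0.05. Other alternatives moved these counts by less than 1.5 times, and DESeq2 called 1579 genes with 1382 of the 1419 among them. Leaving out single libraries, as alternatives chosen after seeing the data, gave 191 to 306 genes higher and 265 to 408 lower in both +P and +C, and 169 to 278 higher and 303 to 468 lower in both +P and −N. Of 72 named genes that were called, 47 were called in all alternatives. Many of the 72 were picked in these data for large changes, low adjusted p-values and no overlap. Their stability therefore does not describe the 1419 calls. Genes named only through the symbol or nitrate groupings are not among the 72. The test without −P replicate 1 lost 2 of the 72, and that on the +P and −P libraries alone lost 20, and 0 reversed. Replicate numbers are not stated to mark a shared batch. Deviations of +P replicate 1 and −P replicate 1 correlated at 0.132, and those of both replicates 2 at 0.0106. With the replicate block 1203 genes were called (493 higher, 710 lower). Only 2 +P libraries and 11.2 M reads in the smallest library limit what could be called.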
